A study of Bos taurus with 48 samples.

Results

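The whole blood transcriptome of 8 Holstein-Friesian (H-F) bull calves was compared between 2 days relative to weaning (d 0). Blood was taken on d -14, a day before milk replacer began to be withdrawn, and again on d 1, the first day after it had been withdrawn completely. The comparison comprises 16 libraries of the 48 that were sequenced, chosen by the breed and day in their labels, and each calf has 1 library on each day. The calves received milk replacer and concentrate from automatic feeders, and were taken from 6 litres of milk replacer to 0 litres between d -13 and d 0, a period of 14 days. The H-F calves were clinically healthy and came from a single farm. No calves were kept on milk as a control, so a difference between the days may belong to age, diet or the day of sampling, and these cannot be told apart. Jersey (J) calves weaned in the same way are used here to show where the H-F calves differ from them. Of these, 7 entered the model, so their libraries also took part in the filter on low counts and in the estimate of spread behind the H-F calls.

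Blood reaches a sequencing library as a mixture of platelets, granulocytes, lymphocytes, monocytes and red cells, and each of these contributes its own transcripts. Milk removal turns a calf that digests milk in its abomasum into a ruminant that relies on solid feed and rumen fermentation. When weaning is abrupt it can act as a stressor, and the usual blood signs of stress in cattle are more neutrophils and fewer lymphocytes. In a bulk sample, fewer cells of a type and less RNA per cell cannot be told apart.

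Library totals were 31152517 to 36128930 counts on d -14 and 28088019 to 37497763 on d 1, so that 1 CPM (a count scaled to library size) stood for 27.1 to 37.1 reads. The share of counts on spike-in RNA was 0.184% to 0.223% on d -14 and 0.179% to 0.221% on d 1, and was higher on d 1 in 4 of 8 calves (exact sign-flip permutation test over calves, two-sided, p = 0.758). Transcripts listed as markers of the main blood cells were present on d -14. Median levels were 267 CPM for FCGR3A from the neutrophil list, 315 CPM for PF4 of platelets, 239 CPM for MS4A1 of B cells and 13.7 CPM for MSR1 of macrophages and monocytes. MPO, also from the neutrophil list, was at 0.652 CPM. Whether the level of FCGR3A measures neutrophil content was not tested. Gene symbols were at hand for 701 of the 12677 genes tested, all of them genes that the study had called as different between the breeds in these same libraries. This named subset is therefore no random sample of blood genes, and none of the genes listed as general T cell or red cell markers was in it.

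There were 32 differentially expressed genes (DEG) between d -14 and d 1 in H-F calves, which was 0.252% of the genes tested. A gene counted as a DEG when its adjusted p was below 0.1 and it changed by 1.5-fold or more, which is 0.585 on the log2 scale. Of these, 13 genes (0.103%) were transcriptionally increased on d 1 and 19 (0.15%) were transcriptionally decreased. An unadjusted p under 0.05 was reached by 1750 genes (13.8%). Without the fold-change threshold, 237 genes (1.87%) differed, of which 128 (1.01%) rose and 109 (0.86%) fell. Most of these changes were small, with a median size of 0.32 on the log2 scale, and the median log2 fold change of all genes tested was 0.00. The test compares each calf with itself. When the libraries were treated as unpaired, 0 genes passed edgeR's quasi-likelihood test, the smallest adjusted p was 0.306 and 528 genes had an unadjusted p under 0.05. edgeR's exact test, the unpaired test named in the study's methods, was run again here on the deposited counts and gave 1 DEG. The study itself, with an earlier version of edgeR, reported no DEG between days within either breed.

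**Figure D1:**
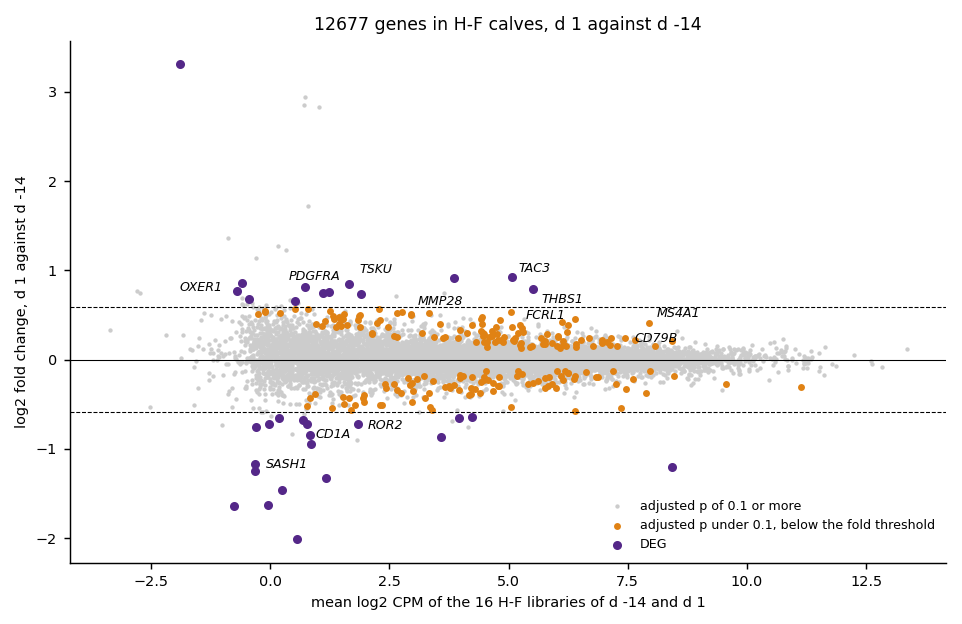
Log2 fold change between d 1 and d -14 in H-F calves (vertical axis) against the mean log2 CPM of the 16 libraries (horizontal axis) for 12677 genes, each a point. The 32 DEG are purple, genes with an adjusted p under 0.1 but a fold change below 1.5 are orange, and dashed lines mark the fold threshold. Most DEG lie at low levels, and the share of all genes at such levels was not counted.

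The levels of the 2 days were clear of each other for 1 of the 32 DEG and overlapped for the rest. Over all genes, 8 (0.0631%) had d -14 and d 1 values that did not overlap. In 14 DEG every calf moved in the same direction, 7 upward and 7 downward. Among all genes tested 661 (5.21%) moved the same way in every calf, with 330 (2.6%) higher on d 1 and 331 (2.61%) lower. Of the DEG, 10 of the 13 rising and 14 of the 19 falling were at a median under 5 CPM on both days. The share of all genes tested at such levels was not counted, so this is only a description.

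Of the 13 genes that were transcriptionally increased, 5 had a symbol. They encode a matrix glycoprotein, a secreted proteoglycan, a neuropeptide precursor and a pair of cell surface receptors.

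THBS1 (ENSBTAG00000002006) encodes thrombospondin 1, an adhesive glycoprotein that platelets store in their granules and release when activated. Its level was 26.6, 35.4 and 41.6 CPM on d -14 (lowest, median and highest calf) and 40.9, 59.4 and 109.5 CPM on d 1. All 8 calves were higher on d 1, and the groups overlapped only between 40.9 and 41.6 CPM. The log2 fold change was 0.79 (SE 0.16, adjusted p = 0.00991). THBS1 was a DEG whichever calf was left out.

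TSKU (ENSBTAG00000001537), or tsukushi, is a secreted small leucine-rich proteoglycan. It ran from 1.20 to 3.24 CPM with a median of 2.48 on d -14, and from 2.63 to 6.66 CPM with a median of 3.91 on d 1. It rose in all 8 calves by a log2 fold change of 0.84 (SE 0.17, adjusted p = 0.0115), and remained a DEG whichever calf was left out.

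TAC3 (ENSBTAG00000021807) encodes the precursor of the tachykinin neurokinin B, best known as a neuropeptide of the reproductive axis. Calves spread widely, from 7.83 to 49.5 CPM with a median of 29.1 on d -14 and from 12.6 to 109.1 CPM with a median of 53.2 on d 1. The level rose in 7 of 8 calves, and calf 33 went from 44.1 to 35.8 CPM. The log2 fold change of 0.92 (SE 0.21, adjusted p = 0.0251) was the largest among rising genes with a symbol. It passed whichever calf was left out, but not with limma-voom (adjusted p = 0.139).

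OXER1 (ENSBTAG00000004076) encodes a receptor of granulocytes for oxidised arachidonic acid products. It was scarce, at 0.324, 0.415 and 0.551 CPM on d -14 and 0.523, 0.636 and 1.37 CPM on d 1 (lowest, median and highest calf). Among the H-F libraries alone OXER1 failed the filter of 1 CPM in 8 or more libraries, and it was tested because J libraries were included. All 8 calves rose, by a log2 fold change of 0.77 (SE 0.19, adjusted p = 0.0466). Calf 27 held the highest value on d 1, and without it the log2 fold change was 0.58 (adjusted p = 0.177). The call was also lost without calf 25, 33, 48 or 49, with an adjusted p of 0.102 without calf 33 and 0.109 without calf 48.

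PDGFRA (ENSBTAG00000007173) encodes a tyrosine kinase receptor for platelet-derived growth factor. Its level was 0.861, 1.68 and 4.26 CPM on d -14 and 1.07, 2.62 and 8.07 CPM on d 1. It rose in 7 of 8 calves with a log2 fold change of 0.75 (SE 0.22, adjusted p = 0.0879). This was the least stable of the named genes, since leaving out any calf but calf 20 took it out of the DEG, with adjusted p-values of 0.106 to 0.271.

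**Figure D2:**
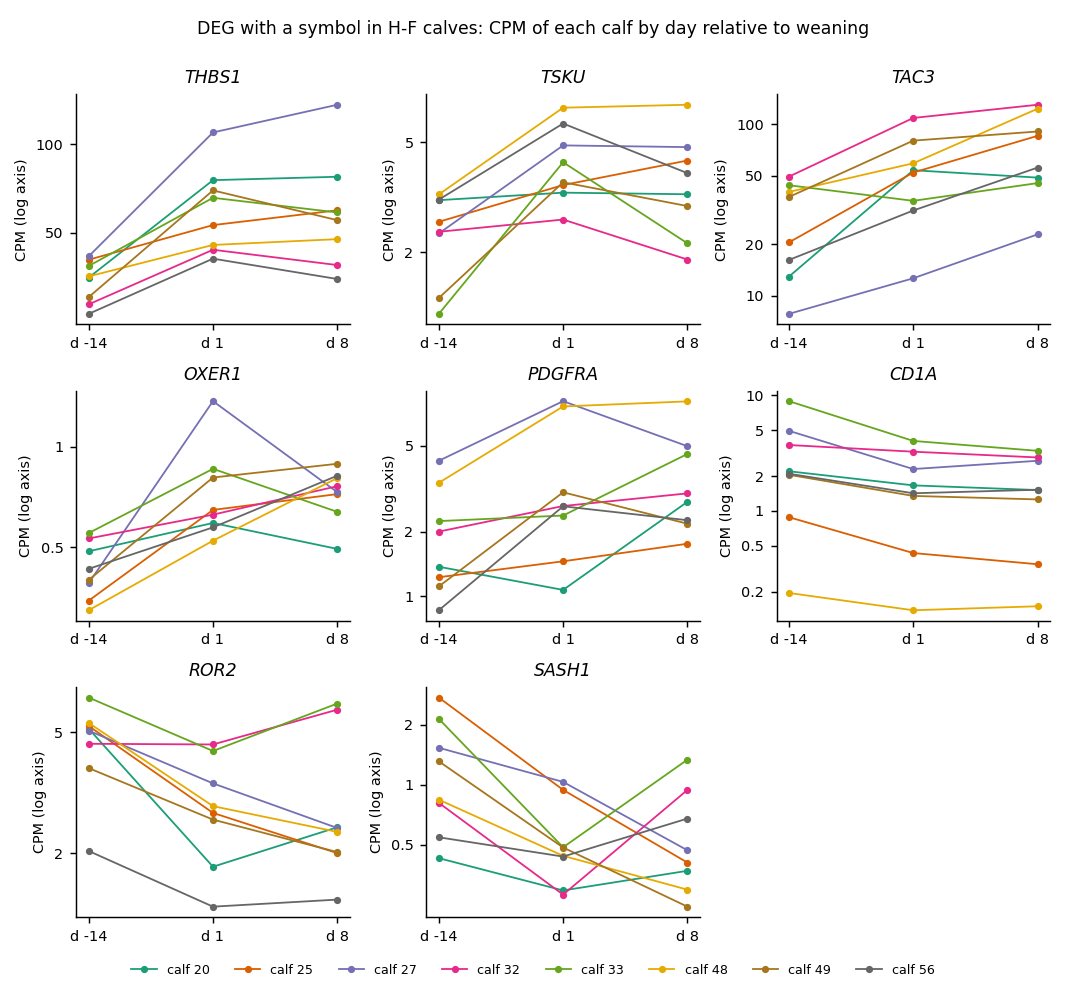
CPM on a log axis for each of the 8 H-F calves by day relative to weaning (left to right, d -14 to d 8), for 8 of the 9 DEG with a symbol. Each line is 1 calf. Every calf rose from d -14 to d 1 for THBS1, TSKU and OXER1, and every calf fell for CD1A, ROR2 and SASH1. Calf 32 barely fell for ROR2. Starting levels of the calves were far apart for CD1A and TAC3, and closer together for THBS1 and OXER1.

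Of the 19 genes that were transcriptionally decreased, 4 had a symbol, and each of these 4 fell in all 8 calves. CD1A (ENSBTAG00000038263) encodes a molecule with which dendritic cells present lipid antigens to T cells. The level was 0.194 CPM in the lowest calf, 2.15 at the median and 8.91 in the highest on d -14, and 0.138, 1.54 and 4.03 CPM on d 1. Calves 27 and 32 changed places, and otherwise the calves kept their order while each went lower. The log2 fold change was -0.72 (SE 0.14, adjusted p = 0.00828), and CD1A stayed a DEG whichever calf was left out, though limma-voom did not call it (adjusted p = 0.411).

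ROR2 (ENSBTAG00000005092) encodes a receptor tyrosine kinase-like protein that takes part in non-canonical Wnt signalling. It went from 2.04, 5.11 and 6.51 CPM on d -14 to 1.34, 2.79 and 4.57 CPM on d 1. Calf 32 barely fell, from 4.59 to 4.57 CPM. The log2 fold change was -0.72 (SE 0.17, adjusted p = 0.036), and the adjusted p rose to 0.121 without calf 48.

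SASH1 (ENSBTAG00000001826) encodes a scaffold protein with SAM and SH3 domains. The median fell from 1.08 CPM (0.429 to 2.74) to 0.462 CPM (0.281 to 1.03). Like OXER1, SASH1 passed the filter on low counts only because J libraries were included. Its log2 fold change of -1.17 (SE 0.29, adjusted p = 0.0439) was the largest fall among genes with a symbol. Without calf 25, 33 or 48 the adjusted p was 0.104, 0.157 and 0.110.

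The other DEG had no symbol, 8 of them higher on d 1 and 15 lower. ENSBTAG00000017733 had the smallest p of all genes and was the 1 DEG whose days did not overlap. It was at 11.1, 16.5 and 22.4 CPM on d -14 and at 7.46, 8.90 and 10.3 CPM on d 1, so that the highest calf on d 1 lay below the lowest on d -14. The log2 fold change was -0.86 (SE 0.12, adjusted p = 0.000362). It was the DEG that the exact test called (adjusted p = 0.0604), and it was called in 17 of the 18 alternatives, the exception being the quasi-likelihood test without pairing.

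ENSBTAG00000047632 rose in all 8 calves, from 5.50, 10.1 and 23.5 CPM to 10.6, 19.3 and 33.2 CPM (log2 fold change 0.92, SE 0.18, adjusted p = 0.00991). ENSBTAG00000013976 also rose in all 8, from 0.905, 1.51 and 3.05 CPM to 1.86, 2.48 and 6.43 CPM (log2 fold change 0.75, SE 0.15, adjusted p = 0.0115). Both were DEG whichever calf was left out. The largest log2 fold change, 3.31 (SE 0.95, adjusted p = 0.0879), belonged to a gene without a symbol that was close to absent in most libraries. It had 0 to 19 reads per calf on d -14, and on d 1 it had 326 reads in calf 49, 174 in calf 27, 92 in calf 56 and at most 16 in the other 5 calves. DESeq2 and limma-voom did not call it.

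Besides SASH1, 7 DEG without a symbol fell by more than 1 on the log2 scale. ENSBTAG00000031845, the member with the smallest p, went from 0.551, 2.25 and 3.18 CPM on d -14 to 0.248, 0.826 and 1.40 CPM on d 1 (log2 fold change -1.46, SE 0.29, adjusted p = 0.0115). The log2 fold changes of the group were -2.01 to -1.20, with a median of -1.46. All 7 fell in the same 7 calves and all 7 were higher on d 1 in calf 33. Mean log2 differences over the 7 genes were -2.70 in calf 48, -2.60 in calf 49, -2.21 in calf 25, -1.57 in calf 56, -1.21 in calf 27, -1.09 in calf 32 and -0.86 in calf 20, against 0.91 in calf 33. SASH1 differed from these 7 genes, as its difference in calf 33 was -2.01. The calls on the 7 genes were not equally firm. DESeq2 called all 7 and limma-voom 3 of them, 5 lost their call without calf 48, 4 without calf 25, 3 without calf 49 and 1 without calf 56, and 2 were called whichever calf was left out.

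The most abundant of the 7 shows how the calves differed. It was lost as a DEG with limma-voom, with the 24 H-F libraries and without calf 25, 48, 49 or 56. On d -14 it was at 1730 CPM in calf 32, 1034 in calf 48, 928 in calf 25, 711 in calf 56, 569 in calf 20, 484 in calf 49, 142 in calf 27 and 101 in calf 33. On d 1 it was at 988 CPM in calf 32 and between 130.1 and 333 CPM in the other 7, and on d 8 all 8 calves were between 75.7 and 231 CPM. Calf 33, the calf that did not fall, started lowest and reached 236 CPM on d 1. The spread of the calves was therefore widest on d -14 and narrowest on d 8.

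**Figure D3:**
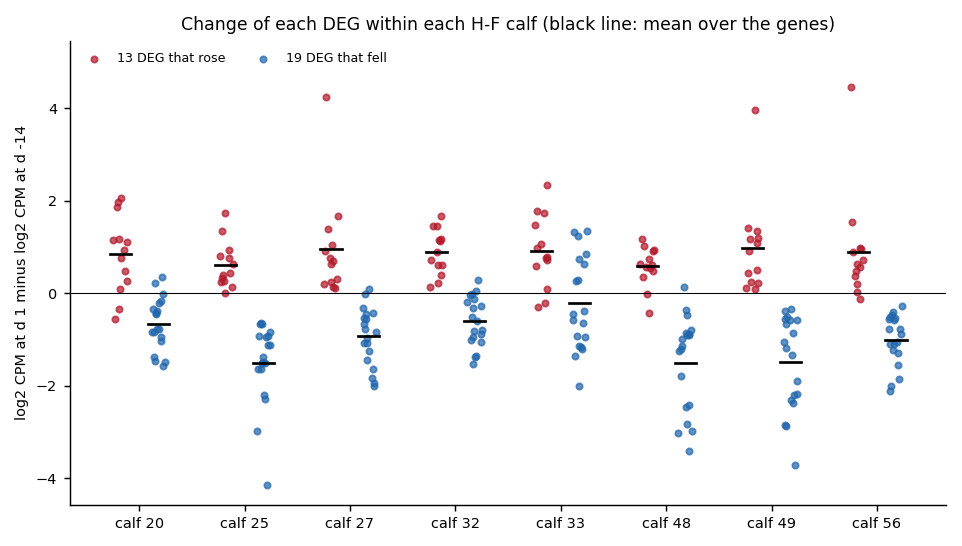
Difference in log2 CPM between d 1 and d -14 within each H-F calf, with 1 point for each of the 13 DEG that rose (red) and the 19 that fell (blue), and a black line at their mean. The mean of the falling genes was -1.51 in calf 25, -1.50 in calves 48 and 49, and -0.22 in calf 33.

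How far each calf followed the group was a description of the genes chosen in these calves, with no test. All 32 DEG went in the called direction in calves 25 and 49, 31 in calves 27 and 56, 30 in calf 32, 29 in calf 48, 28 in calf 20 and 22 in calf 33. Rising genes had similar means in all calves, from 0.58 in calf 48 to 0.97 in calf 49. Leaving out calf 48 gave 19 DEG, of which 8 fell, and leaving out calf 25 gave 20 DEG, of which 11 fell. Leaving out the other calves gave 24 to 36.

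Among the 701 genes with a symbol, 38 (5.42%) had an adjusted p under 0.1 and 9 (1.28%) were DEG. These genes had been picked in the same libraries for differing between breeds, so this share says nothing about named genes in general. The remaining 29 were below the fold threshold, with 20 that rose and 9 that fell by 0.24 to 0.57 on the log2 scale, and 16 of the 29 moved the same way in all 8 calves. The genes named in this paragraph were chosen after their values were seen. MMP28, a matrix metalloproteinase, rose in all 8 calves from a median of 6.48 CPM (4.60 to 8.37) to 9.44 CPM (7.18 to 10.9), with a log2 fold change of 0.52 (SE 0.09, adjusted p = 0.00289). HAAO, an enzyme of the kynurenine pathway of tryptophan breakdown, rose in all 8 from 2.42 to 2.94 CPM at the median (log2 fold change 0.46, SE 0.09, adjusted p = 0.0115). KCNN4, a calcium-activated potassium channel of lymphocytes and red cells, rose in 7 of 8 from 37.6 to 45.1 CPM (log2 fold change 0.36, SE 0.10, adjusted p = 0.0794).

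Among those that fell, XYLB, the kinase that phosphorylates xylulose, went from a median of 5.82 CPM (3.73 to 9.59) to 4.15 CPM (2.80 to 6.00) and was lower in all 8 calves (log2 fold change -0.51, SE 0.09, adjusted p = 0.00413). HFE, a regulator of iron uptake, fell in all 8 from 3.80 to 2.96 CPM (log2 fold change -0.51, SE 0.13, adjusted p = 0.0462). PTPRO, a receptor tyrosine phosphatase, fell in all 8 from 6.07 to 4.72 CPM (log2 fold change -0.51, SE 0.14, adjusted p = 0.0794). FZD7, a Wnt receptor like ROR2, fell in 7 of 8 from 1.99 to 1.41 CPM (log2 fold change -0.52, SE 0.15, adjusted p = 0.0801). XYLB, HFE, PTPRO and FZD7 were likewise picked after their values were seen.

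B cell markers were the gene list with the most members called. Of 20 listed genes 8 could be matched, 3 of these rose (adjusted p under 0.1, against 1.01% of all genes and 3.57% of the genes with a symbol, from which every match came), 0 fell and 5 were not called, and none was a DEG. All 8 matched genes had a log2 fold change above 0, with a median of 0.25 beside 0.00 for all genes tested. The median of the genes with a symbol, which had been picked for breed differences in these libraries, was not computed. MS4A1, which encodes the B cell surface protein CD20, was at 139, 239 and 284 CPM on d -14 and at 214, 295 and 364 CPM on d 1 (lowest, median and highest calf). It was higher on d 1 in all 8 calves (log2 fold change 0.42, SE 0.07, adjusted p = 0.00216), and the groups overlapped.

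FCRL1, an Fc receptor-like protein of B cells, rose in 7 of 8 calves from a median of 36.7 to 42.5 CPM (log2 fold change 0.30, SE 0.07, adjusted p = 0.0373). CD79B, a signalling chain of the B cell receptor, rose in 7 of 8 from 167 to 185 CPM (log2 fold change 0.24, SE 0.06, adjusted p = 0.0715). CD22 was higher in 8 of 8 calves but did not pass the test (log2 fold change 0.27, SE 0.08, adjusted p = 0.112). Without calf 48 the log2 fold change of FCRL1 was 0.21 (adjusted p = 0.135) and that of CD79B 0.17 (adjusted p = 0.268). The call on CD79B was also lost without calf 25, 32, 33 or 49, with adjusted p-values of 0.117 to 0.160, and limma-voom called neither FCRL1 nor CD79B. The summed level of the 8 matched genes was 502 to 1047 CPM on d -14 and 717 to 1216 CPM on d 1, and was higher on d 1 in 8 of 8 calves. The median log2 fold change of the same 8 genes in J calves was 0.02. Of genes of B cell activation 3 of 17 could be matched and 0 were called, with log2 fold changes of -0.13 for BACH2, 0.08 for CD38 and -0.06 for BTLA.

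Platelet markers were matched for 8 of 16 genes, of which THBS1 rose and 7 were not called. The median log2 fold change of the list was 0.03. PF4, a chemokine of platelet granules, was higher in 8 of 8 calves without passing the test (median 315 and 379 CPM, log2 fold change 0.33, SE 0.12, adjusted p = 0.208). PPBP, another granule chemokine, was at a median of 22.9 CPM on both days (log2 fold change 0.01, adjusted p = 0.99). The summed level of the list was 274 to 583 CPM on d -14 and 317 to 896 CPM on d 1, higher on d 1 in 8 of 8 calves. Most of this sum was PF4. Without PF4 and THBS1 the other 6 genes summed to 25.9 to 65.8 CPM on d -14 and 19.5 to 79.4 CPM on d 1, higher on d 1 in 3 of 8 calves.

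Monocyte and dendritic cell markers were matched for 5 of 16 genes, of which CD1A fell and 4 were not called. The log2 fold changes of the 4 were -0.40 for CLEC10A, -0.23 for FLT3, -0.16 for BATF3 and 0.04 for MSR1, with adjusted p-values of 0.319 to 0.915. The summed level was 22.9 to 45.2 CPM on d -14 and 19.6 to 44.6 CPM on d 1, and it was lower on d 1 in every calf. This sum includes CD1A, which itself fell in every calf, and it was not computed without CD1A. It therefore does not show that the other 4 genes fell together. CD14 and CSF1R, which define monocytes, were not among the genes with a symbol. Whether the fall of CD1A reflects fewer such cells was not tested.

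Interferon-stimulated genes, the antiviral programme of blood cells, were matched for 11 of 26. Of the 11, 0 were called and 0 had an unadjusted p under 0.05, and their log2 fold changes ran from -0.31 to 0.25 with a median of -0.16. Levels varied between calves, for example 45.2 to 192 CPM on d -14 and 41.8 to 188 CPM on d 1 for ISG15 (log2 fold change -0.11, SE 0.31, adjusted p = 0.914). In J calves the median of the same 11 genes was 0.56. The difference between breeds had an unadjusted p under 0.05 in 5 of the 11 genes, OAS1X, OAS2, OAS1Y, RSAD2 and ISG15, and from 0.0115 to 0.0414 in these. The same held for 4.69% of all genes and 11.3% of those with a symbol, which had been picked for breed differences in these libraries, and 0 of the 11 passed adjustment.

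**Figure D4:**
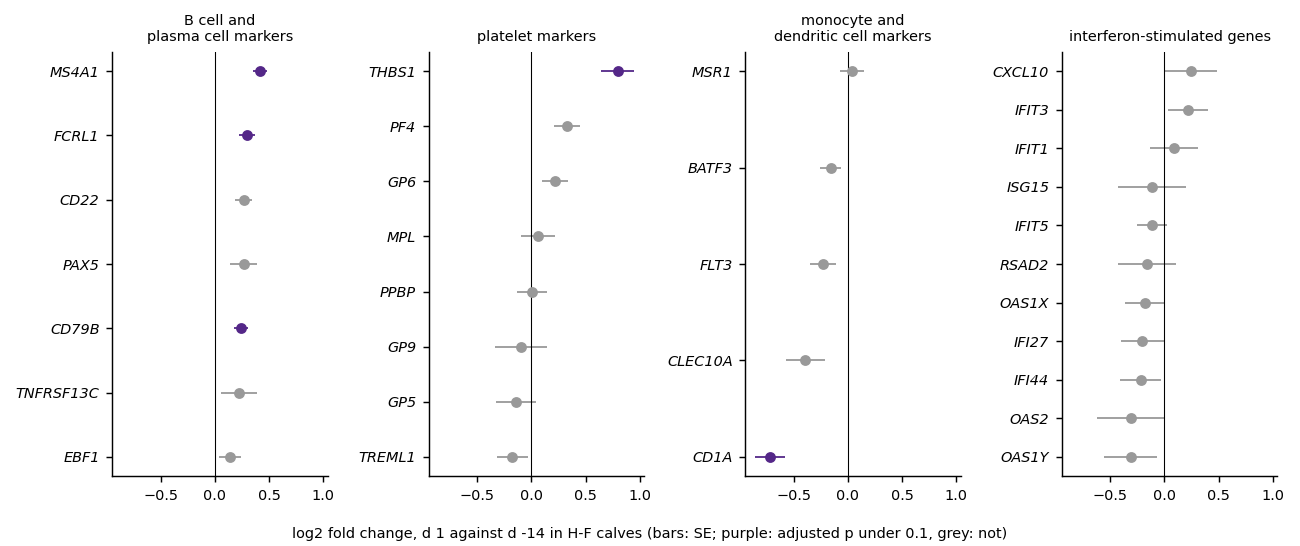
Log2 fold change between d 1 and d -14 in H-F calves for matched genes of 4 lists, with bars for SE. Purple genes had an adjusted p under 0.1. The 7 B cell markers drawn lie to the right of 0, whereas the interferon-stimulated genes lie on both sides.

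In the remaining lists few members carried a symbol, and 0 members were called in the 4 lists taken first. Neutrophil markers were matched for 3 of 18 genes, namely CXCR2 (log2 fold change 0.30), FCGR3A (-0.09) and MPO (-0.04). Inflammatory cytokines were matched for 3 of 22, namely CCL3 (0.30), IL1B (0.26) and PTGS2 (-0.38). Cytotoxic lymphocyte markers were matched for 5 of 18, with a median log2 fold change of -0.09. Eosinophil and basophil markers were matched for 2 of 14, SIGLEC8 (0.07) and PRG3 (0.00).

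Among single matches, the decoy receptor IL1R2, from the list of glucocorticoid-responsive genes, had a log2 fold change of -0.28 (adjusted p = 0.327). The values were -0.19 for IL23R of gamma delta T cells, 0.13 for LCN2 of the acute phase and anti-microbial genes, and -0.07 for STARD4 of the sterol synthesis genes. Of fatty acid and PPAR target genes LPL had -0.30 and PPARG -0.08. For liver X receptor targets the 1 matched identifier, ENSBTAG00000006937, is labelled with the symbol ABCA1 but the name of another family member, so its identity is uncertain. It fell by 0.34 on the log2 scale (SE 0.10, adjusted p = 0.0796). No member of the T cell, red cell, apoptosis, heat shock, cell cycle or clock lists had a symbol, so these were not examined.

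The H-F changes were set beside those of J calves, in which 7 genes (0.0552%) were DEG between the same days. Of the 32 DEG of H-F calves, 26 had the same sign of log2 fold change in J calves, 10 of 13 that rose and 16 of 19 that fell. The share of all genes tested with the same sign was not counted, so these numbers are only a description. The 16 include the 7 genes with large falls, which moved together within each H-F calf. An adjusted p under 0.1 in J calves was reached by 0 of the 13 and 5 of the 19. All 5 lacked a symbol. They included ENSBTAG00000017733 (log2 fold change -0.76 in J calves, adjusted p = 0.012) and 4 of the 7 genes with large falls, among them ENSBTAG00000031845 (-1.72, adjusted p = 0.0538). The 7 genes had a median log2 fold change of -1.46 in H-F and -1.83 in J calves.

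The breed difference itself was tested as an interaction of breed and day. The breeds also differed in farm of origin and age, which cannot be told apart from breed. No gene had an adjusted p under 0.1 with edgeR's quasi-likelihood test, with 594 genes (4.69%) below an unadjusted p of 0.05. limma-voom also gave 0 genes, with 569 below that level. The smallest adjusted p was 0.208. It belonged to EPHX4/ABHD7, a putative epoxide hydrolase, with log2 fold changes of 0.29 in H-F and -0.32 in J calves. Without calf 20 this gene and 1 without a symbol passed, with adjusted p-values of 0.045 and 0.0249.

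Of the 32 DEG, 11 had an unadjusted interaction p under 0.05 and none passed adjustment. The 32 were chosen for their change in H-F calves, which is itself part of the interaction. Small unadjusted p-values are therefore favoured among them, and the 11 are no sign of a breed difference. TAC3 had a log2 fold change of 0.92 in H-F and -0.33 in J calves (unadjusted p = 0.000278, adjusted p = 0.433). SASH1 had -1.17 and 0.16 (unadjusted p = 0.00295). THBS1 had 0.79 and 0.57, and PDGFRA 0.75 and 0.74. MS4A1 had 0.42 and 0.07 (unadjusted p = 0.00114) and CD79B 0.24 and -0.11 (unadjusted p = 0.000814). These values do not show that any of these genes responded in H-F calves alone.

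**Figure D5:**
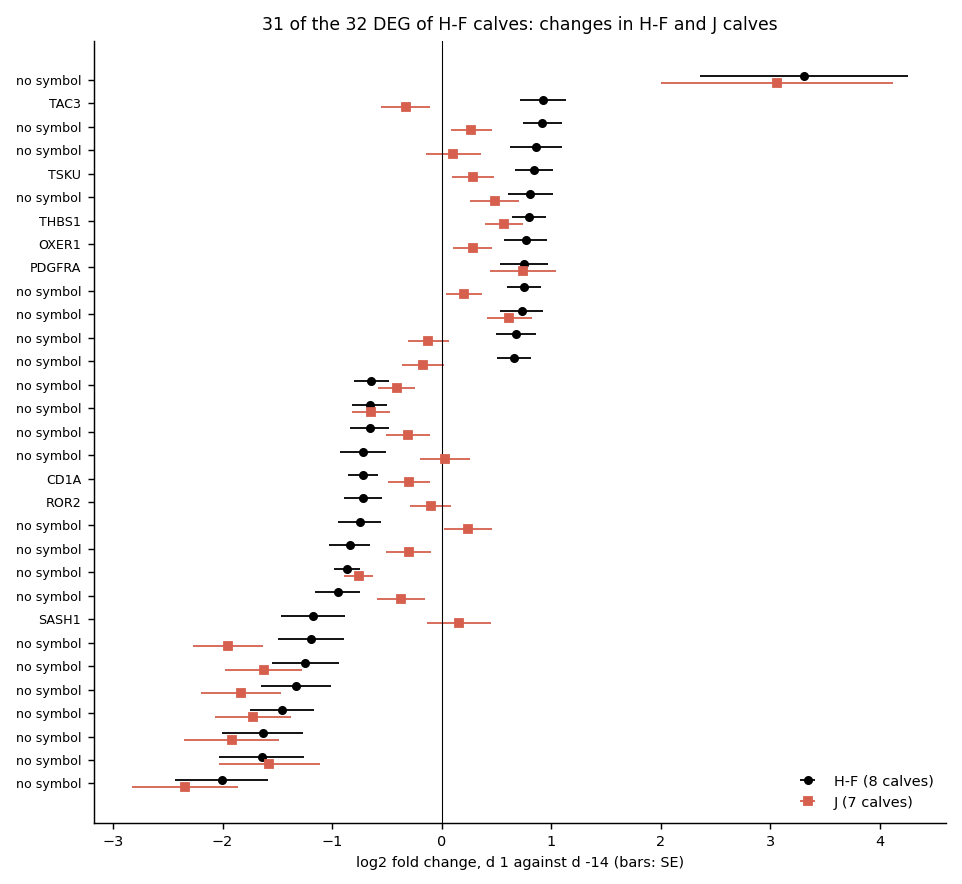
Log2 fold change between d 1 and d -14 for 31 of the 32 DEG of H-F calves, in H-F calves (black circles, 8 calves) and in J calves (red squares, 7 calves), with bars for SE. The 7 genes with large falls are low in both breeds, while TAC3 and SASH1 lie on opposite sides of 0.

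On d 8, a week after d 1, H-F calves had 137 DEG (1.08%) against d -14. Both comparisons use the d -14 libraries, so their values are only placed side by side. The 13 rising DEG had a median log2 fold change of 0.79 on d 1 and 0.78 on d 8, and the 19 falling DEG -0.86 and -1.06. TAC3 had 0.92 on d 1 and 1.43 on d 8, THBS1 0.79 and 0.76, and TSKU 0.84 and 0.60. CD1A had -0.72 and -0.79, ROR2 -0.72 and -0.71, and SASH1 -1.17 and -1.06. The median of the 7 large falls was -1.46 on d 1 and -2.75 on d 8.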

How the data were processed

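Total RNA from Tempus blood tubes was made into TruSeq libraries, which do not keep strand, and sequenced in pairs. Per the labels and the study's methods, the authors assessed reads with FastQC (version 0.10.0), aligned them to UMD3.1 with STAR, kept unique alignments and counted reads per Ensembl gene with HTSeq-count, and they deposited raw counts with 92 spike-in sequences. For STAR, HTSeq-count and the strand setting, the version or value was not given in the sources used here. Labels tied each of the 48 deposited columns to its animal and day.

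Spike-in sequences were set aside, and a gene was tested if it exceeded 1 CPM in 8 or more libraries (12677 of 24616 genes). Library sizes were scaled by TMM, and log2 CPM per calf used a prior count of 2. edgeR 4.0.16 in R 4.3.3 was fitted to 45 libraries of 15 calves (quasi-likelihood F test), with calf as a block and a mean for each breed and day, leaving 26 residual degrees of freedom. The study removed a J calf without naming it, and J calf 85 was left out because the remaining calves then matched the mean expression in its tables best. Adjusted p-values are Benjamini-Hochberg over all genes tested, and SE is the size of the log2 fold change divided by the square root of F. Each calf number is 1 animal bled on every day. After removal of group means, libraries of the same calf correlated at 0.40 to 0.85 and those of different calves at -0.58 to 0.30. The biological coefficient of variation was 0.102 with the block and 0.185 without it.

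Alternatives were DESeq2 1.42.0, no block, the exact test, limma-voom (limma 3.58.1) in which calf was a random effect with correlation 0.441, RLE scaling, other filters, other sets of libraries, other thresholds and each calf left out. limma-voom for the breed difference was added after the data had been seen. Counts were also simulated for the same 12677 genes, with 200 of them changed by 1 on the log2 scale. The blocked test recovered 99.5% of the 200 and called 2 unchanged genes. The unpaired quasi-likelihood test recovered 95% and called 0 unchanged genes, and the exact test 95.5% and 0. The simulated spread used the same median quasi-likelihood factor for all genes, so genes that vary more than that were not represented. These percentages are therefore not rates for the real genes of these calves. Recovery of smaller differences was not tested. In the calves, the median size among genes with an adjusted p under 0.1 was 0.32.

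The comparison, its gene lists and its named genes were chosen with earlier results of these data known. The rule named DEG with a symbol (up to 12 in each direction by p), the 2 in each direction without one, the smallest p without the block, the 3 smallest p-values of each list and the 2 smallest interaction p-values. Symbols came from the study's own gene tables (701 of 800 identifiers), since the reference tables used here do not pair Ensembl identifiers with names. Overlapping and antisense genes cannot be told apart without strand. Coordinates and sequences are not given, and 1 DEG and 1 list member count in the totals but are not reported here by name. Figures were drawn with Python 3.11.15 and matplotlib 3.10.9.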

Additional observations from a re-analysis of the deposited data

Results flagged for a closer look

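In 9 of 90 groups (45 named genes on 2 days), 1 calf stood apart from the other 7 by more than Dixon's 95% limit. In all 9 it was the highest calf. The limit is meant for independent, normally distributed values. Here it was applied to CPM that were not log-transformed, from genes measured in the same 16 libraries. The 9 of 90 can therefore not be set against a rate of 5%. None of the 9 is explained here. Among DEG, OXER1 was at 1.37 CPM in calf 27 on d 1 with the next calf at 0.858, ENSBTAG00000047632 at 23.5 CPM in calf 49 on d -14 with the next at 12.5, and ENSBTAG00000013976 at 6.43 CPM in calf 33 on d 1 with the next at 2.93. Among list members, CLEC10A was at 2.13 CPM in calf 27 on d 1 (next 1.19), FLT3 at 10.5 CPM in calf 33 on d 1 (next 6.69) and NCR1 at 22.1 CPM in calf 49 on d 1 (next 11.8). On d -14 SIGLEC8 was at 13.4 CPM in calf 33 (next 8.24), IL1R2 at 11.9 CPM in calf 48 (next 9.15) and LPL at 73.9 CPM in calf 49 (next 54.2).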

How the results depend on the processing

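The count of 32 DEG was 0 without the replicate block and 1 with the exact test. With the block it was 18 with limma-voom, 104 without a filter on low counts, 55 with a mean count of at least 10 and 237 without the fold threshold, and 19 (without calf 48) to 36 (without calf 20) with 1 calf left out. DESeq2 gave 36 with 31 shared, RLE scaling 32 with 32 shared, the 24 H-F libraries 24 with 22 shared, all 16 calves 31 with 29 shared, and an FDR of 5% 24. The 16 libraries of d -14 and d 1 gave 39 with 24 shared, and 916 genes without the fold threshold. Every one of the 32 DEG that could be tested in those 16 libraries kept its call. The others, OXER1 and SASH1 among them, failed the filter on low counts there, and passed it in the main fit only through libraries outside the comparison. The breed difference gave 2 genes with all 16 calves and 0 to 2 with 1 H-F calf left out (2 without calf 20). No value for a named gene changed sign past the threshold. Of 45 named genes, 17 had an adjusted p under 0.1 in the main fit, and all 17 lost it without the block. Of these 17, 16 lost it with the exact test and 7 with limma-voom. With the 24 H-F libraries 3 lost it, and OXER1 and SASH1 were not tested. Depth limits genes near 1 CPM, and the causes of these shifts were not tested.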
